A study of Homo sapiens with 24 samples.

Results

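The metallothionein and zinc-response genes of SW1783 cells were MT1E, MT1F, MT1G, MT1M, MT1X, MT2A, SLC30A1 and MTF1. They were taken by name from the table of expected counts, where they are 8 of 60675 genes. SW1783 is an established human astrocytoma cell line. It was exposed for 24 h to one of 2 extracts of Schisandrae Fructus, the dried fruit of a medicinal vine. The hot water extract (WESF) was given at 20, 100 and 500 µg/mL in batch A, and the ethanol extract (EESF) at 12.4, 62 and 310 µg/mL in batch B. The vehicle of each batch, labelled 0.1% DMSO, is called vehicle A and vehicle B. Each of the 8 groups held 3 libraries, and no label says whether these came from separate cultures, so the p-values measure the spread between libraries, which may be technical. By the study's methods the highest WESF dose was without toxicity in a preliminary screen, whereas the highest EESF dose lay at a level that reduced cell viability in part. The extract, the dose in µg/mL and the batch changed together and cannot be told apart. Total expected counts per library ran from 20731749 to 30288310 in batch A and from 18727797 to 32567395 in batch B. Depth went with the group. It was 18727797 to 20465712 in vehicle B and 29659110 to 32567395 at EESF 310. It was 26447834 to 28461841 in vehicle A and 20731749 to 24692309 at WESF 500. Depth and treatment therefore cannot be told apart at the highest doses, and the part of depth in the results was not tested.

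Metallothioneins are small cysteine-rich proteins that bind zinc and copper and buffer their free concentrations in the cell. MTF1 is the zinc-sensing transcription factor that binds metal response elements in the promoters of metallothionein genes and of SLC30A1, which encodes a zinc exporter of the plasma membrane. In astrocytes the MT1 and MT2 forms are abundant, and metals, glucocorticoids and oxidative stress are known inducers.

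The 6 metallothionein members lie in one cluster on chromosome 16 of GRCh38, from MT2A (chr16:56608584-56609497) and MT1E (chr16:56625475-56627112) to MT1X (chr16:56682470-56684196), with MT1M, MT1F and MT1G between them. SLC30A1 (chr1:211571568-211579161) and MTF1 (chr1:37809574-37859592) lie on the minus strand of chromosome 1. The promoters are shown because they carry the element through which MTF1 acts. The promoter table, from RefSeq on GRCh38.p14, held 4 of the 8 genes, MT1X, MT2A, SLC30A1 and MTF1. The 250 bases before the annotated start follow, read along the gene's strand, at chr16:56608334-56608583 (plus) for MT2A, chr16:56682220-56682469 (plus) for MT1X and chr1:211579162-211579411 (minus) for SLC30A1. Capitals mark each match to the metal response element core, searched as TGCACNC or TGCGCNC on both strands.

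MT2A: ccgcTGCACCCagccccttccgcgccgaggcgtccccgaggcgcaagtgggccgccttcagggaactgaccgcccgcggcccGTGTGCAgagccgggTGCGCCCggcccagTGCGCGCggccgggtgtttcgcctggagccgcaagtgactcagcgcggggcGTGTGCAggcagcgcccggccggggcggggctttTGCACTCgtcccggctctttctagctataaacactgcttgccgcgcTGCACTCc

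MT1X: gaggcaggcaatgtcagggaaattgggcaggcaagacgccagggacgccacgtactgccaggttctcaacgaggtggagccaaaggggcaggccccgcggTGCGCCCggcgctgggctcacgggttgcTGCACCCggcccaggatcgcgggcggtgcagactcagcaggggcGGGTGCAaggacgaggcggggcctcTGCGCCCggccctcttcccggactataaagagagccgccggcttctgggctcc

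SLC30A1: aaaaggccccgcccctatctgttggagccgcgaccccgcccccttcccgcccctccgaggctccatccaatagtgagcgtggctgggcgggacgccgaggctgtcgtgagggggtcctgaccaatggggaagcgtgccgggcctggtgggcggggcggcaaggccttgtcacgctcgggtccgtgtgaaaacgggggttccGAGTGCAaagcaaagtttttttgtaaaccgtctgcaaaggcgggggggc

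The window of MT2A held 7 cores, that of MT1X held 4, that of SLC30A1 held 1 and that of MTF1 held 0. No matches overlapped one another in these windows. Of 15843 windows of the same length before protein-coding genes, 29.3% held at least 1 core, 0.448% held at least 4 and 0.0316% held at least 7. The matches describe letters in a window and are not measured binding.

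**Figure D1:**
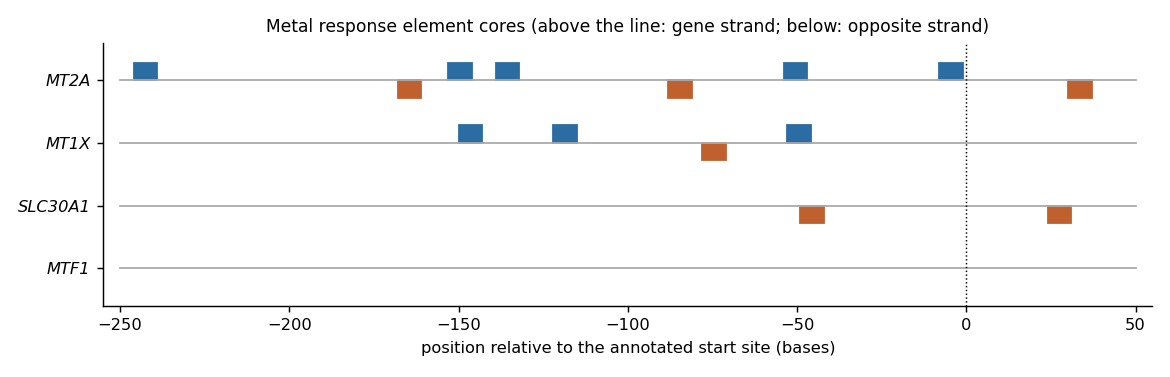
Positions of metal response element cores in the promoters of MT2A, MT1X, SLC30A1 and MTF1. The x axis is the distance in bases from the annotated start (dotted line), from 250 bases before to 50 after it, and each box is 1 core, drawn above the line on the gene's strand and below it on the other. Before the start, MT2A has 7 boxes, MT1X 4, SLC30A1 1 and MTF1 0.

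Levels were expressed as CPM, the reads of a gene relative to the reads of its library in protein-coding genes, with library sizes scaled by TMM over all 24 libraries. Of the 8 genes, 5 passed the filter on low counts in the comparisons with vehicle (MT2A, MT1X, MT1E, SLC30A1 and MTF1). MT1F had 3 to 14 expected counts per library, MT1M had 0 to 5, and MT1G had at most 2.01 and was at 0 in 16 of 24 libraries, so none of these 3 genes passed the filter in those comparisons. MT1F passed it in 1 comparison, the difference between the extracts at the lowest dose, at 0.63 with a 95% interval of −0.64 to 1.91 (adjusted p = 0.723, edgeR). A count of 0 allows up to 3 counts, which is 0.0958 to 0.167 CPM depending on the library and covers counting error only. Of the 6 other metallothionein genes of the table, MT1B, MT1H, MT1HL1 and MT4 were at 0 in all 24 libraries, MT1A had 0 to 8 counts and MT3, the form best known from neurons, had 0 to 2.

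Per kilobase of transcript, MT2A was far above the other members in vehicle A at 305.4 ± 19.7 CPM per kilobase (SD, n = 3). MT1X followed at 19.3 ± 1.81, SLC30A1 at 11.3 ± 0.741, MT1E at 10.7 ± 2.21 and MTF1 at 4.85 ± 0.571. SLC30A1 and MT1E did not differ beyond their spread there, and the order was the same in vehicle B, where MT2A was at 294.6 ± 22.7 CPM per kilobase. At WESF 500 the lower end of the order was exchanged, with SLC30A1 at 7.18 ± 0.101, MTF1 at 6.52 ± 0.346 and MT1E at 3.48 ± 0.546 CPM per kilobase. MT2A made up 86.8% to 95.3% of the summed metallothionein CPM over the 24 libraries. Between vehicle B and vehicle A the log2 differences ran from −0.23 for MT1E to 0.09 for MTF1, no member passed an adjusted p of 0.05, and by edgeR 0% of 13001 genes did (371 at an unadjusted p under 0.05). Same-numbered vehicle libraries of both batches deviated together, and with that number as a block 17 genes were called between the vehicles, none of them a member.

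**Figure D2:**
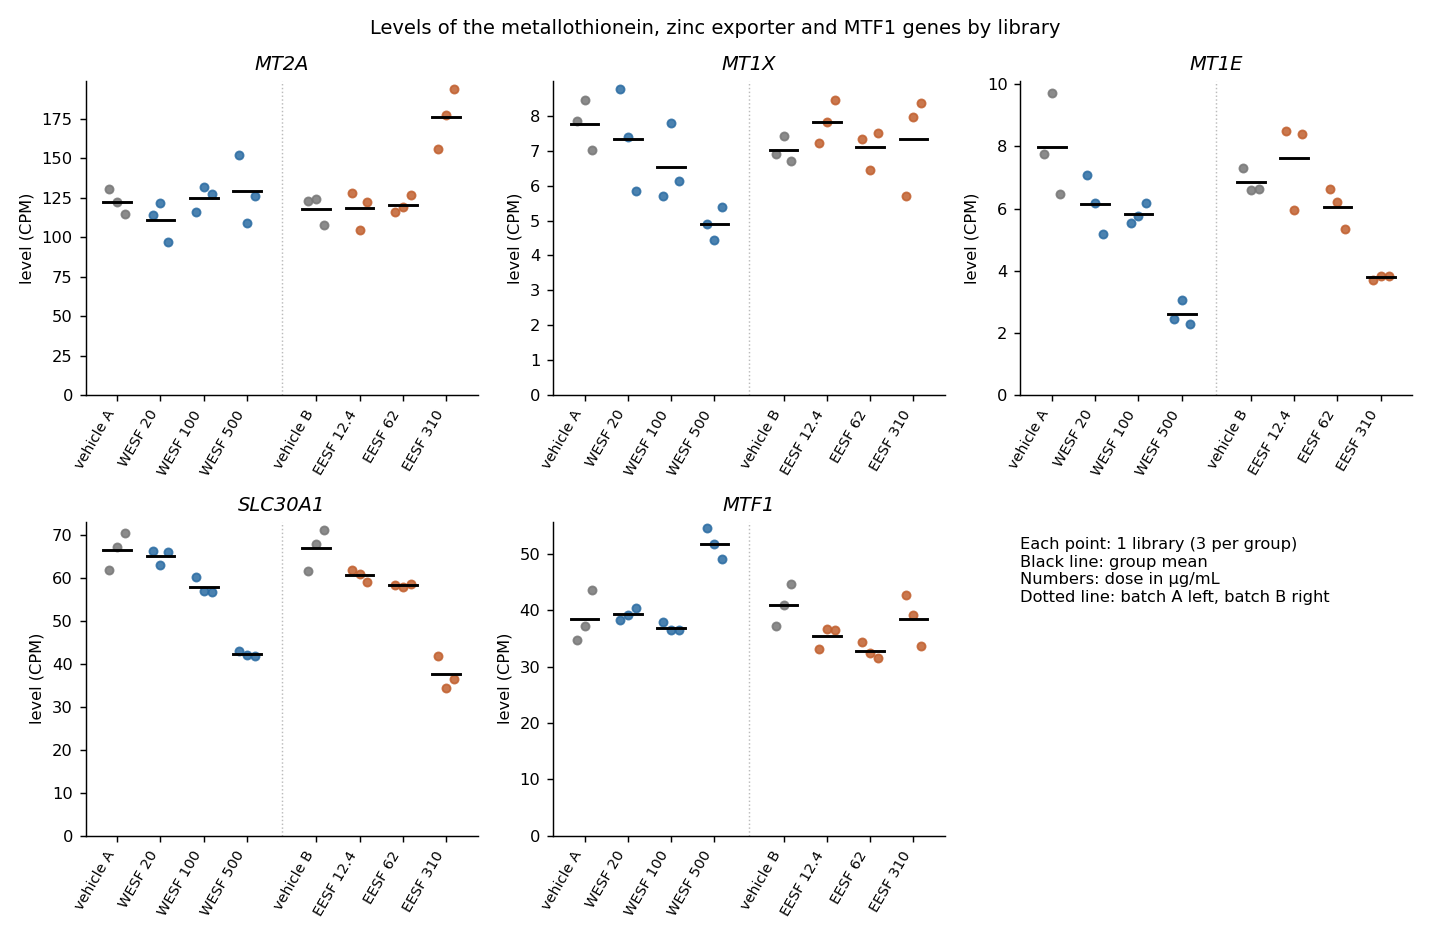
Level in CPM (y axis, from 0) of the 5 tested genes in each library, by group on the x axis (dose in µg/mL), with a black line at the group mean of 3 libraries. At the highest doses MT1E and SLC30A1 lie below the vehicle of their batch with both extracts, MT1X with WESF and MT2A above it with EESF, and MTF1 above it with WESF.

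At WESF 500 µg/mL MT1E, MT1X and the zinc exporter SLC30A1 fell while MT2A, the dominant metallothionein, overlapped with its vehicle. MT1E fell by 67.7%, MT1X fell by 36.7% and SLC30A1 fell by 36.3%, and the mRNA of the sensor MTF1 rose by 34.6%. With genes called where the adjusted p was under 0.05 and the fold beyond 1.5, 3 of the 5 tested members were called, all lower, against 24.1% of 13129 genes called in either direction and 13.0% called lower. By the adjusted p alone 4 of the 5 passed, against 68.9% of all genes. The median log2 fold change of the 5 was −0.65, beside 0.001 over all genes tested.

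MT1E, a metal-inducible MT1 form, was at 7.74, 9.73 and 6.465 CPM in vehicle A and at 2.46, 3.06 and 2.28 CPM at WESF 500. The groups did not overlap, as for 71.5% of the genes tested. The log2 fold change of MT1E was −1.63 (SE 0.162, adjusted p = 1.21e-07, edgeR), the largest change among the 5 tested members in this comparison.

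MT1X, another MT1 form, was at 7.85, 8.46 and 7.01 CPM in vehicle A and at 4.91, 4.44 and 5.39 CPM at WESF 500, without overlap. On the log2 scale MT1X changed by −0.66 (SE 0.113, adjusted p = 5.79e-05). Of the 100-base windows of the MT1X transcript, 22% also occur in another annotated gene at that place, so part of its reads can be split between the 2 entries. MT1E, MT2A, SLC30A1 and MTF1 had 0% of such shared windows.

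SLC30A1 was at 61.7, 67.2 and 70.4 CPM in vehicle A and at 42.98, 41.99 and 41.9 CPM at WESF 500. All 3 treated libraries lay below the lowest vehicle library, and the log2 fold change was −0.65 (SE 0.0544, adjusted p = 1.47e-08).

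MTF1 was at 34.7, 37.3 and 43.5 CPM in vehicle A and at 54.5, 51.6 and 49.01 CPM at WESF 500. The treated libraries were all higher, and the log2 fold change was 0.43 (SE 0.0705, adjusted p = 4.11e-05), below the 1.5-fold limit. MT2A was at 130.3, 122.5 and 114.5 CPM in vehicle A and at 151.9, 109.2 and 126.1 CPM at WESF 500. The treated libraries spread on both sides of the vehicle, and the log2 fold change was 0.08 (SE 0.0827, 95% interval −0.10 to 0.25, adjusted p = 0.422). Without WESF high replicate 1 it was −0.06, and without WESF high replicate 2 it was 0.19 (adjusted p = 0.035).

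The change of MT2A depended on whether trends on transcript length and GC content, which were removed together, stayed in the data. Over 390 other tested genes with transcripts under 800 bases the median log2 fold change at WESF 500 was −0.07, and over 3663 with transcripts over 5000 bases it was −0.01. The metallothionein transcripts are 398 to 746 bases long, and those of SLC30A1 and MTF1 5893 and 7937. With each library's trend on transcript length and GC content removed, MT2A was higher at WESF 500 (log2 fold change 0.29, adjusted p = 0.000109) and MT1X was at −0.44 (adjusted p = 0.000984), under the 1.5-fold limit, whereas MT1E at −1.57 and SLC30A1 at −0.59 remained called.

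At EESF 310 µg/mL the zinc exporter and MT1E again were lower, but MT2A was higher and MT1X did not follow MT1E. SLC30A1 fell by 43.9%, MT1E fell by 44.7%, and MT2A rose by 48.9%. Of the 5 tested members 2 were called, both lower, against 17.4% of 13092 genes called in either direction and 9.17% called lower. By the adjusted p alone 3 of the 5 passed, against 58.0% of all genes. The median log2 fold change of the 5 was −0.09, beside 0.007 over all genes.

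SLC30A1 was at 61.55, 67.8 and 71.2 CPM in vehicle B and at 41.9, 34.3 and 36.45 CPM at EESF 310, without overlap, as for 62.8% of the genes tested. On the log2 scale SLC30A1 changed by −0.83 (SE 0.0792, adjusted p = 2.95e-06).

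MT1E was at 7.32, 6.599 and 6.64 CPM in vehicle B and at 3.71, 3.83 and 3.82 CPM at EESF 310, so that the treated libraries lay close together and below all vehicle libraries. On the log2 scale MT1E changed by −0.85 (SE 0.108, adjusted p = 2.91e-05).

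MT2A was at 122.7, 124.1 and 107.6 CPM in vehicle B and at 156.1, 177.6 and 194.0 CPM at EESF 310. Every treated library exceeded every vehicle library. The log2 fold change of MT2A was 0.57 (SE 0.0792, adjusted p = 5.82e-05), a fold of 1.49 that stayed just under the limit of 1.5. Without vehicle B replicate 1, vehicle B replicate 2 or EESF high replicate 1 it was 0.59, 0.60 and 0.65 and was called.

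MT1X was at 6.91, 7.42 and 6.70 CPM in vehicle B and at 5.69, 7.96 and 8.38 CPM at EESF 310. The treated libraries lay on both sides of the vehicle, and the log2 fold change was 0.07 (SE 0.139, 95% interval −0.23 to 0.37, adjusted p = 0.684). MTF1 was at 37.2, 40.9 and 44.6 CPM in vehicle B and at 42.7, 39.1 and 33.7 CPM at EESF 310, with overlap and a change of −0.09 on the log2 scale (SE 0.0898, adjusted p = 0.427).

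Short and long transcripts stood further apart here. Over 388 other genes with transcripts under 800 bases the median log2 fold change at EESF 310 was 0.08, and over 3647 with transcripts over 5000 bases it was −0.15. With the length and GC trend removed, MT2A was at 0.53, MT1E at −0.99 and SLC30A1 at −0.63, each with an adjusted p under 0.05, and MTF1 was at 0.13 (adjusted p = 0.0787).

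**Figure D3:**
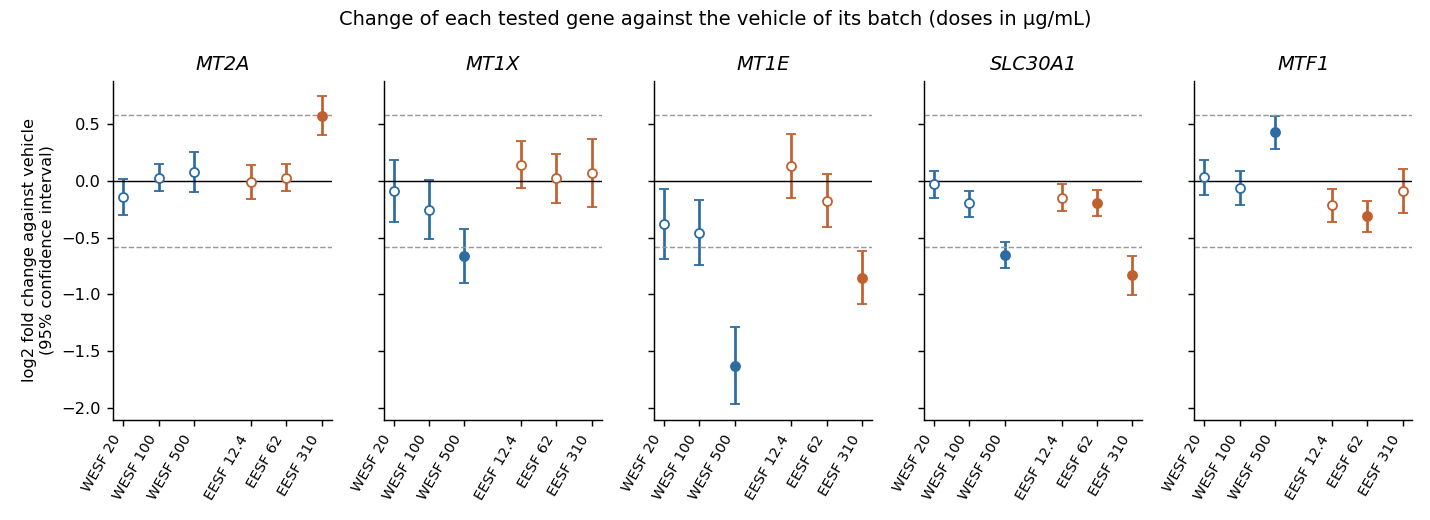
Log2 fold change against the vehicle of the batch (y axis) of MT2A, MT1X, MT1E, SLC30A1 and MTF1 at each dose (x axis, µg/mL), with 95% confidence intervals from edgeR. Filled points passed an adjusted p of 0.05, open points did not, and the dashed lines mark a 1.5-fold change. MT1E at WESF 500 is the lowest point at −1.63 and MT2A at EESF 310 the highest at 0.57.

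At the middle doses SLC30A1 was at 0.871 times vehicle with WESF and at 0.873 times vehicle with EESF. At WESF 100 µg/mL it was at 60.2, 56.9 and 56.7 CPM, with no overlap with vehicle A (as for 24.5% of the genes tested), and the log2 fold change was −0.20 (SE 0.0536, adjusted p = 0.0519). At EESF 62 µg/mL it was at 58.3, 57.8 and 58.7 CPM, again with no overlap (33.7% of genes), at −0.20 (SE 0.0548, adjusted p = 0.0245). Its adjusted p there was above 0.05 (up to 0.114) in 5 of the 6 fits that left out 1 library, with log2 fold changes between −0.26 and −0.15 over the 6, and with the length and GC trend removed it was at −0.11 (adjusted p = 0.108). At WESF 100 removing the trend acted the other way on the test, with SLC30A1 at −0.15 (adjusted p = 0.0148). With 1 library left out SLC30A1 ran from −0.251 to −0.155 at WESF 100. Its adjusted p was under 0.05 in 1 of these 6 fits (lowest 0.0036, highest 0.224). MTF1 was at 34.4, 32.5 and 31.5 CPM at EESF 62, below each vehicle B library, a change of −0.31 on the log2 scale (SE 0.0659, adjusted p = 0.00555). With the trend removed MTF1 was at −0.17 there (adjusted p = 0.046), and at WESF 100 it was at −0.06 (adjusted p = 0.677). MT1E was at 5.53, 5.77 and 6.18 CPM at WESF 100, below vehicle A without overlap, at −0.46 (SE 0.134, adjusted p = 0.068), and at −0.49 (adjusted p = 0.0136) with the trend removed. Without vehicle A replicate 2 this value of MT1E was −0.29 (adjusted p = 0.281), and without vehicle A replicate 3 it was −0.58 (adjusted p = 0.0257). MT2A and MT1X overlapped with their vehicles at both middle doses. SLC30A1 and MTF1 at EESF 62 were the 2 of 5 members that passed the adjusted p, against 15.4% of all genes. No member was called, against 0.275% of 13112 genes at WESF 100 and 0.755% of 12978 at EESF 62.

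In the main fits of the lowest doses no member passed an adjusted p of 0.05. At WESF 20 µg/mL 0% of 13131 genes were called (470 at an unadjusted p under 0.05, 1 called by DESeq2), and at EESF 12.4 µg/mL 0.271% of 12892. MT1E was at 7.09, 6.17 and 5.20 CPM at WESF 20, overlapping with vehicle A, at −0.38 (SE 0.145, adjusted p = 0.999), and at −0.21 without vehicle A replicate 2. MTF1 was at 33.1, 36.6 and 36.5 CPM at EESF 12.4, below vehicle B without overlap (29.6% of genes), at −0.22 (SE 0.0677, adjusted p = 0.061). It was at −0.09 (adjusted p = 0.323) with the length and GC trend removed, at −0.14 (adjusted p = 0.24) without vehicle B replicate 3 and at −0.29 (adjusted p = 0.00334) without vehicle B replicate 1. With a replicate block within the batch MTF1 was at −0.21 (adjusted p = 0.0181). SLC30A1 at EESF 12.4 was at −0.15, and between −0.21 and −0.09 with 1 library left out. Its adjusted p was under 0.05 in 1 of these 6 fits (lowest 0.00476, highest 0.384). With the trend removed SLC30A1 was at −0.06 (adjusted p = 0.439). 

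The highest dose was also set against the lowest dose of the same extract, a comparison that shares its treated libraries with that against vehicle. With WESF, MT1E was at −1.25 (SE 0.154, adjusted p = 5.90e-06), SLC30A1 at −0.62 (SE 0.0443, adjusted p = 2.32e-08), MT1X at −0.57 (SE 0.143, adjusted p = 0.00265) and MTF1 at 0.40 (SE 0.0508, adjusted p = 8.01e-06). The first 2 were called, against 23.0% of 13100 genes, and with the length and GC trend removed SLC30A1 was at −0.58, under the fold limit. MT2A was at 0.22 (SE 0.0981, adjusted p = 0.0588), with overlap of the groups, and at 0.37 (adjusted p = 0.000146) with the trend removed. Without WESF high replicate 1 it was 0.08 and without WESF low replicate 3 it was 0.14, whereas without WESF low replicate 2 (0.29) or WESF high replicate 2 (0.33, adjusted p = 0.00544) it passed the adjusted p. With EESF, MT1E was at −0.995 (SE 0.137), SLC30A1 at −0.69 (SE 0.067) and MT2A at 0.58 (SE 0.0831), and the first 2 were called, against 14.6% of 13197 genes. With the trend removed SLC30A1 lost its call (−0.57) and MT2A gained one (0.63), each with an adjusted p under 0.05 in both fits. MTF1 at 0.125 and MT1X at −0.081 did not pass the adjusted p between these EESF doses. With the trend removed MTF1 passed it at 0.22 (adjusted p = 0.00539), and MT1X was at 0.004 (adjusted p = 0.98). With 1 library left out MTF1 ran from 0.046 to 0.213 and passed in 1 of 6 fits (lowest adjusted p 0.0159).

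An interaction term asked whether the change at the highest dose differed between the extracts, with extract, dose and batch joined in it. Given as EESF change minus WESF change on the log2 scale, the difference was 0.78 for MT1E (SE 0.211, adjusted p = 0.0136), 0.73 for MT1X (SE 0.189, adjusted p = 0.0103), 0.50 for MT2A (SE 0.139, adjusted p = 0.0154) and −0.51 for MTF1 (SE 0.129, adjusted p = 0.00915). MT1E and MT1X were called, against 3.88% of 13376 genes, and 26.0% passed the adjusted p alone. For SLC30A1 the difference was −0.18 with a 95% interval of −0.40 to 0.04 (adjusted p = 0.207), which does not show that the extracts acted alike on it. It was −0.05 (adjusted p = 0.682) with the length and GC trend removed, −0.12 without EESF high replicate 2 and −0.27 (adjusted p = 0.028) without EESF high replicate 1. The median difference over 406 other genes with transcripts under 800 bases was 0.20, and with the trend removed the differences were 0.59 for MT1E, 0.55 for MT1X, 0.26 for MT2A and −0.36 for MTF1, each with an adjusted p under 0.05. MT1E was still called there, whereas MT1X was under the fold limit and lost its call. With the trend removed and the vehicle number as a block as well, no member was called, MT1E being at 0.58 (adjusted p = 0.0379) and MT1X at 0.55 (adjusted p = 0.0207), and MT2A at 0.26 no longer passed (adjusted p = 0.0554). At the middle and lowest doses no member passed an adjusted p of 0.05 in this test, and 0.0301% of 13276 and 0% of 13221 genes were called (1390 of the latter at an unadjusted p under 0.05). With the block across the vehicles 20 and 9 genes were called there, again no member.

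The ratio of MT2A to MT1E was higher in every library of both highest doses than in any vehicle library, and no test was made on it. Per kilobase, MT2A was 31.3, 23.4 and 32.96 times MT1E in vehicle A and 115.1, 66.5 and 103 times MT1E at WESF 500. It was 31.2, 34.97 and 30.1 times MT1E in vehicle B and 78.2, 86.2 and 94.5 times MT1E at EESF 310. The summed metallothionein level was 146.4, 141.2 and 128.4 CPM in vehicle A and 159.5, 117.1 and 134.3 CPM at WESF 500, with overlap. It was 137.6, 138.4 and 121.2 CPM in vehicle B and 165.8, 189.9 and 206.6 CPM at EESF 310, where each treated library was higher.

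**Figure D4:**
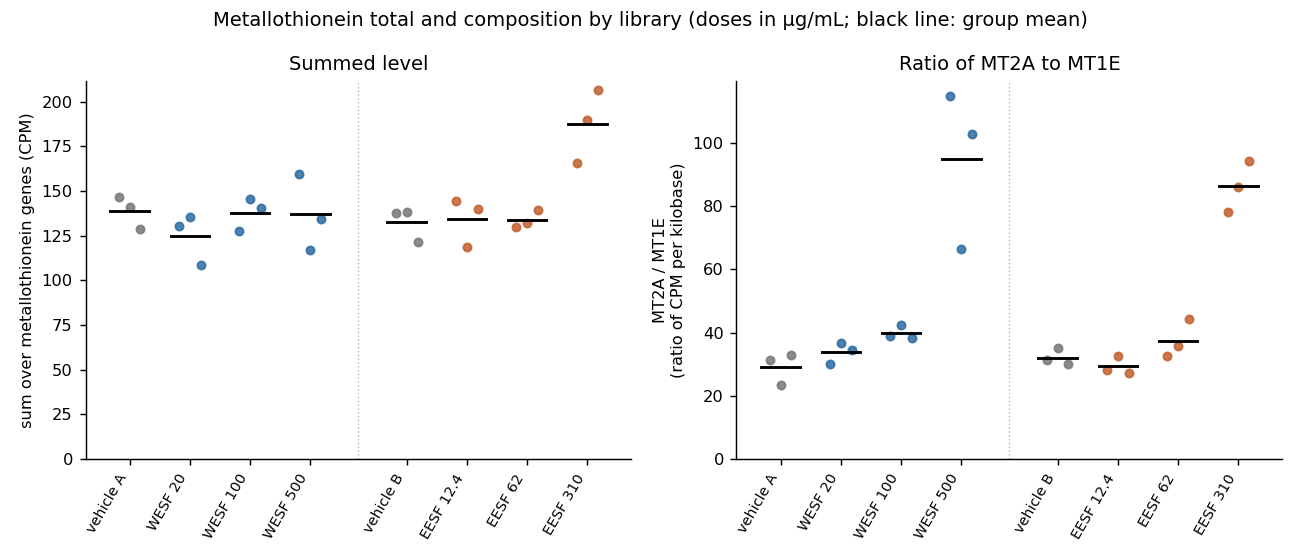
Summed metallothionein level in CPM (left) and the ratio of MT2A to MT1E in CPM per kilobase (right) in each library by group (x axis, dose in µg/mL), with a black line at the group mean of 3 libraries. The ratio lies between 23.4 and 44.2 in all groups but the highest doses, where it lies between 66.5 and 115.1.

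MT1L, a metallothionein pseudogene of the same cluster that was tested only when all genes of the table were kept, was higher at both highest doses. It was at 1.29, 0.940 and 0.74 CPM in vehicle A and at 2.41, 1.68 and 2.76 CPM at WESF 500, a change of 1.21 on the log2 scale (SE 0.249, adjusted p = 0.000617). It was at 1.03, 0.665 and 0.726 CPM in vehicle B and at 2.30, 2.37 and 2.79 CPM at EESF 310, a change of 1.601 on the log2 scale (SE 0.222, adjusted p = 8.66e-05). The groups did not overlap in either batch. All of its 100-base windows (100%) also occur in a second annotated gene at that place, so the assignment of its reads is uncertain.

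SLC30A1 was the one called gene of its family. Of 7 tested SLC30 exporters, most of which move zinc out of the cytosol, 1 was called at WESF 500 and 1 at EESF 310. It was SLC30A1 both times, where 24.1% and 17.4% of all genes were called. At WESF 500 SLC30A5 (log2 fold change 0.54, SE 0.0426) and SLC30A7 (0.46, SE 0.0493), which load zinc into the secretory pathway, passed the adjusted p under the fold limit, and at EESF 310 they were at 0.09 (SE 0.0629) and 0.01 (SE 0.0642). Their differences between the extracts were −0.45 (adjusted p = 0.000658) for SLC30A5 and −0.45 (adjusted p = 0.00107) for SLC30A7. The list median was 0.02 at WESF 500 and −0.11 at EESF 310.

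Of 11 tested SLC39 importers, which bring zinc into the cytosol, 3 were called higher and 1 lower at WESF 500, and 2 higher and 1 lower at EESF 310. Over all genes 24.1% and 17.4% were called, so these counts are read as descriptions of the named genes. SLC39A10, a plasma membrane importer, rose from 47.5 to 116.4 CPM at WESF 500 (log2 fold change 1.29, SE 0.0555, adjusted p = 4.06e-12) and from 46.6 to 79.3 CPM at EESF 310 (0.77, SE 0.0706, adjusted p = 2.29e-06). SLC39A7, which releases zinc from the endoplasmic reticulum, rose from 256.8 to 460.3 CPM at WESF 500 (0.84, SE 0.0454) and from 258.1 to 430.7 CPM at EESF 310 (0.74, SE 0.0573). SLC39A9 was called only at WESF 500 (0.84, SE 0.0538), and at EESF 310 it was at 0.28 (SE 0.0667), a difference of −0.56 (adjusted p = 0.000612) just under the fold limit. The 1 importer called in the difference between the extracts was SLC39A4, an intestinal zinc importer, at 0.59 (SE 0.156, adjusted p = 0.0116). It was at 10.3 CPM in vehicle A and 10.2 CPM at WESF 500, and at 10.6 CPM in vehicle B and 15.8 CPM at EESF 310 (0.57, SE 0.101, under the fold limit). At EESF 62 it was the 1 importer called, at 15.9, 14.9 and 17.1 CPM (0.59, SE 0.0942, adjusted p = 0.00106), and at EESF 12.4 it was at 13.6, 13.8 and 14.3 CPM (0.38, SE 0.0898, adjusted p = 0.019). SLC39A8, which also carries cadmium and manganese, fell at both, from 13.0 to 8.32 CPM at WESF 500 (−0.64, SE 0.0844) and from 13.5 to 8.36 CPM at EESF 310 (−0.69, SE 0.0882). The list median was −0.01 at WESF 500 and 0.28 at EESF 310.

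Copper-handling genes, which share metallothioneins as a buffer, were called in both directions. Of 15 tested, 4 were called higher and 3 lower at WESF 500, and 2 higher and 2 lower at EESF 310, beside the same 24.1% and 17.4% of all genes, with list medians of 0.06 and 0.14. SLC31A1, the high-affinity copper importer, rose from 78.1 to 193.7 CPM at WESF 500 (1.31, SE 0.0473) and from 81.1 to 134.8 CPM at EESF 310 (0.73, SE 0.0553). ATP7A, a copper-exporting ATPase, fell from 70.4 to 44.6 CPM (−0.66, SE 0.071) and from 72.6 to 40.2 CPM (−0.85, SE 0.0817). STEAP3, a metalloreductase, fell from 150.0 to 68.3 CPM (−1.14, SE 0.0439) and from 147.9 to 89.1 CPM (−0.73, SE 0.0501), and CUTC, a copper-binding protein, rose by 0.79 (SE 0.057) and 0.62 (SE 0.0657). ATP7B, the second copper ATPase, was called at WESF 500 (0.68, SE 0.0931) and was at 0.30 (SE 0.131, adjusted p = 0.0706) at EESF 310. With the length and GC trend removed, ATP7A at −0.56 and CUTC at 0.53 were under the fold limit at EESF 310, as was CUTC without vehicle B replicate 2 (0.58) or EESF high replicate 1 (0.57).

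**Figure D5:**
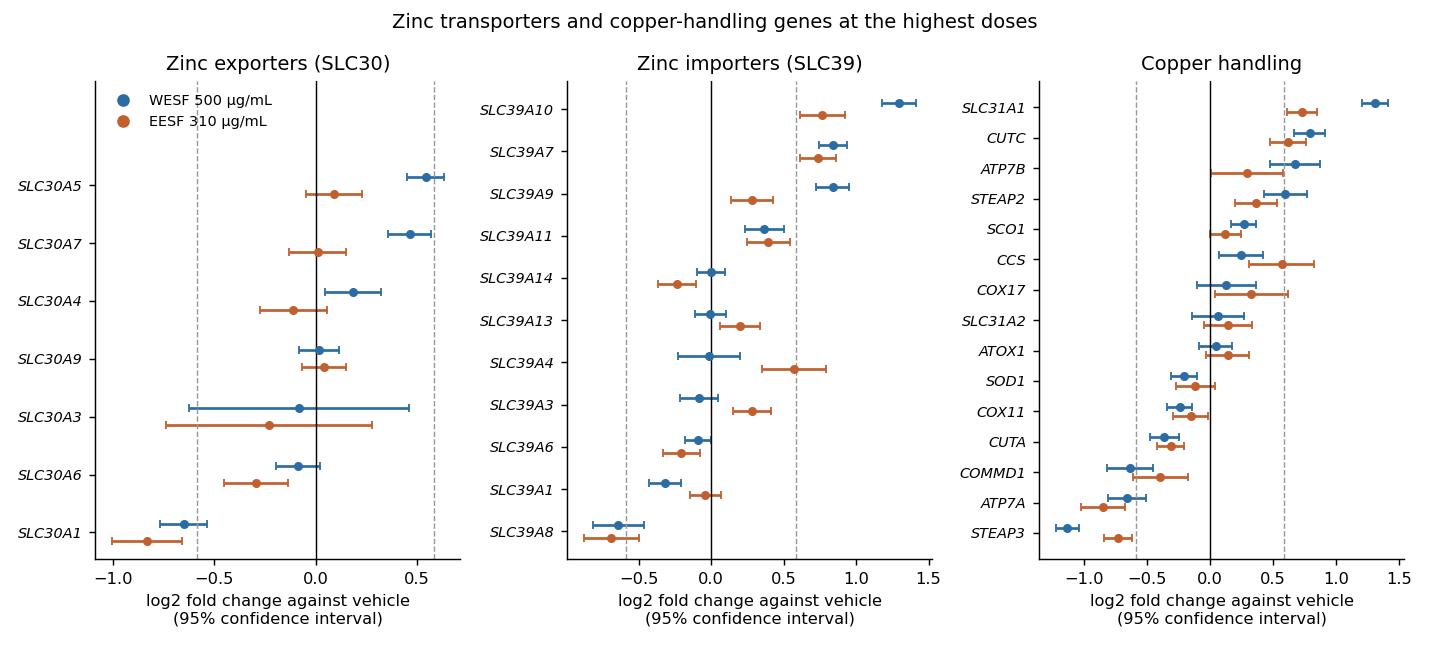
Log2 fold change against vehicle (x axis, with 95% confidence intervals) at WESF 500 and EESF 310 µg/mL for the tested zinc exporters, zinc importers and copper-handling genes, one gene per row. Dashed lines mark a 1.5-fold change. SLC30A1 is the only exporter beyond the lower line with both extracts, and SLC39A10, SLC39A7, SLC31A1 and CUTC lie beyond the upper line with both.

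Lists of the targets of other inducers of metallothioneins were read beside them, against the same shares of all genes. Of 9 NRF2 targets, which answer oxidative stress, 5 were called higher at WESF 500 and 2 at EESF 310, with medians of 0.63 and 0.45. HMOX1, which degrades heme, was at 0.99 (SE 0.0461) and 0.53 (SE 0.0691), and TXNRD1, a thioredoxin reductase, at 0.83 (SE 0.0419) and 0.66 (SE 0.054). The others that the naming rule took at WESF 500 were SLC7A11 (0.77, SE 0.0603) and GCLC (0.74, SE 0.0516), and at EESF 310 SRXN1 (0.68, SE 0.0567). Of 8 HSF1 targets, the heat shock genes, 2 were called higher and 1 lower at WESF 500 and 0 at EESF 310, with medians of 0.33 and 0.08. Counted by the adjusted p alone, 5 were higher and 2 lower at WESF 500, and 2 higher and 3 lower at EESF 310. In the difference between the extracts at the highest dose 3 of the 8 were called, against 3.88% of all genes. They were HSPA1A (−0.84), HSPA1B (−0.73) and HSPA8 (−0.60), whose EESF change was below their WESF change. A negative difference does not mean a level below vehicle B. The difference of HSPB1 was 0.41, under the fold limit. HSPA1A was at 1.00 (SE 0.0623), HSPA1B at 0.91 (SE 0.0506) and the small heat shock gene HSPB1 at −0.94 (SE 0.0563) at WESF 500. Of 8 tested glucocorticoid receptor targets, 1 was called higher and 1 lower at each highest dose, with medians of 0.15 and −0.04. By the adjusted p alone 5 were higher and 1 lower at WESF 500, and 1 higher and 1 lower at EESF 310. The called ones were DUSP1, a MAP kinase phosphatase (1.92, SE 0.0472, and 1.20, SE 0.0532), and CRISPLD2, a secreted protein (−1.37, SE 0.0542, and −1.08, SE 0.0592), with both extracts. Of the others, ERRFI1, a feedback inhibitor of EGFR, was at 0.52 (SE 0.045), TSC22D3 at 0.22 (SE 0.0621), SGK1 at 0.17 (SE 0.048) and KLF9 at 0.13 (SE 0.0425) at WESF 500, each past the adjusted p, while PER1 at 0.06 and FKBP5 at −0.17 did not pass.

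Over the 24 libraries, after subtraction of the vehicle mean of each batch from log2(CPM + 1), the genes whose pattern was most like that of SLC30A1 among 9546 protein-coding genes were RAB27B (Pearson r 0.991), MMP16 (0.99), ZDHHC20 (0.987), MCC (0.983) and FMR1 (0.983). For MT2A they were EIF3F (0.876), LGMN (0.866) and MRPL4, TMA16 and PA2G4 (each 0.858). Among the members, SLC30A1 followed MT1E (r = 0.738) and ran against MT2A (r = −0.739). These libraries share depth, batch and dose, so the values are descriptions.

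The labelled cell type was checked against its markers. Of 10 astrocyte markers, 5 passed the filter: VIM at 4821 CPM in vehicle A, the most abundant, and CD44, SOX9, SLC1A3 and NES. The defining markers GFAP, S100B, AQP4, SLC1A2 and ALDH1L1 were at or near 0, with means of at most 0.401 CPM in vehicle A. The summed level of the list was 7779 ± 73.0 CPM in vehicle A and 6583 ± 128 at WESF 500, and 7943 ± 93.6 CPM in vehicle B and 7422 ± 133 at EESF 310 (SD, n = 3), with 4 of 5 tested markers called lower at WESF 500 and 2 at EESF 310. VIM did not follow the sum. It was at 4876, 4780 and 4807 CPM in vehicle A and at 4910, 4713 and 4767 CPM at WESF 500, with overlap. It was at 4942, 4913 and 4912 CPM in vehicle B and at 5058, 5406 and 5373 CPM at EESF 310. CD44 fell from 2707, 2890 and 2912 to 1754, 1708 and 1705 CPM in batch A. In batch B it fell from 2776, 2943 and 2969 to 2149, 2042 and 2039 CPM. In bulk libraries fewer cells of a type and less RNA per cell cannot be told apart. Fibroblast markers were abundant, led by COL1A1 at 3797 CPM in vehicle A, with 1 of 4 called lower at each highest dose and sums of 5644 ± 134 and 5081 ± 139 CPM in batch A and 5617 ± 153 and 5310 ± 105 CPM in batch B. Neuron markers, led by TUBB3, summed to 164.8 ± 1.92 and 82.2 ± 4.29 CPM in batch A, with 1 of 5 called higher and 4 lower, and to 167.5 ± 4.04 and 105.7 ± 5.15 CPM in batch B, with 3 of 4 called lower. The marker called higher was RBFOX3, which defines mature neurons, at 0.147, 0.0723 and 0.117 CPM in vehicle A and 0.762, 0.838 and 0.526 CPM at WESF 500, while SNAP25, SYT1, TUBB3 and MAP2 were lower there. RBFOX3 did not pass the filter on low counts in the comparison of EESF 310 with vehicle B, where its means were 0.563 and 0.138 CPM. Microglia markers summed to 13.9 ± 0.494 and 3.63 ± 0.171 CPM in batch A and to 13.4 ± 0.654 and 3.81 ± 0.405 CPM in batch B, led by PTPRC, with 2 of 2 tested called lower at each and AIF1 at 0 in the 4 groups. Oligodendrocyte markers, led by MBP, summed to 7.10 ± 0.557 and 13.3 ± 1.41 CPM in batch A, with 1 of 1 tested called higher, and to 7.00 ± 0.33 and 10.2 ± 0.323 CPM in batch B, with 0 of 1 called and MOG at 0. Endothelial markers, led by PECAM1, had group means of at most 1.20 CPM in sum in these groups and at most 1.55 CPM in any library, with 1 of 1 tested called lower at WESF 500 and CDH5 at 0 in vehicle A. The part of these shifts in the metallothionein results was not tested.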

How the data were processed

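RNA of 24 SW1783 libraries (8 groups of 3) was sequenced by the authors as 100-base read pairs from a directional kit, checked with FastQC 0.11.9, trimmed with Trim Galore 0.6.6, aligned with STAR 2.7.9a to GRCh38 and counted with RSEM 1.3.3. The strand setting was not given in the sources used here. The deposited values are RSEM expected counts, of which 10.851% were not whole (tolerance 0.005), and they were rounded before testing. Of 60675 gene IDs, 56558 were in GENCODE version 44, 19586 of them protein-coding.

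The members and gene lists were chosen with earlier results of these data known. Doses were tested against the same batch's vehicle by edgeR 4.0.16 (R 4.3.3) quasi-likelihood tests on protein-coding genes kept by filterByExpr, with TMM scaling and Benjamini-Hochberg adjustment over all genes tested. Differences between extracts were interaction terms over 12 libraries. SE is the log2 fold change over the root of F. A gene was called at an adjusted p under 0.05 and a fold beyond 1.5. All 8 members were named, and per list at most 4 called genes with the largest change at each highest dose, and the 5 genes most like MT2A and SLC30A1. Genes named outside this rule were chosen after their values were seen. Same-numbered vehicle libraries of the batches deviated together from their group means (r = 0.358, 0.164 and 0.259), although no label says what they shared, and differed by more than sampling noise (chi-square per degree of freedom 3.39 to 3.66). A block on that number was therefore added after seeing the data. The fits were tested on simulated counts. The alternatives were DESeq2 1.42.0, its size factors, no filter, all genes, all groups of the batch, a replicate block and each library left out. The fit with all groups of the batch kept all genes as well. Added after seeing the data was a trend on transcript length and GC content (natural splines) removed by offsets.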

Additional observations from a re-analysis of the deposited data

Results flagged for a closer look

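At the highest doses the changes of 4 genes differed between the extracts by the interaction test of edgeR, given as EESF 310 µg/mL change minus WESF 500 µg/mL change on the log2 scale. The difference was 0.778 for MT1E, which was lower with both extracts and lower still with WESF. It was 0.733 for MT1X, which was lower with WESF and overlapped with vehicle with EESF. It was 0.499 for MT2A, which was higher with EESF and overlapped with vehicle with WESF. It was −0.513 for MTF1, which was higher with WESF and overlapped with vehicle with EESF. Extract, dose and batch cannot be told apart in these values. With the trend on transcript length and GC content removed they were 0.587, 0.546, 0.259 and −0.358, with adjusted p-values of 0.0433, 0.0205, 0.0479 and 0.00628. With the replicate number of the vehicles as a block as well, MT2A was at 0.259 with an adjusted p of 0.0554.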

How the results depend on the processing

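The count of members called stayed within 1.5 times its main value, or at 0 in both fits, in 178 of 181 alternative fits. The main count was 0 at the middle and lowest doses and between the vehicles. A change from 2 to 3 members lay within the limit. The 3 exceptions came with the trend on transcript length and GC content removed, chosen after seeing the data: between WESF high and WESF low 1 member was called instead of 2, and in the difference between extracts at the highest dose 1 instead of 2, or 0 with a block across the vehicles as well. Of 1059 single-gene values from the alternative fits, 30 had the opposite sign to the main value, and in 0 of these was either value called. With the trend removed, sign changes were MT1X at WESF low (0.007), MTF1 at EESF high (0.127), MT1X (−0.047) and MT2A (−0.073) at EESF medium, MT1X between EESF high and EESF low (0.004), and MT2A (0.076, or 0.077 with the block) and SLC30A1 (−0.003 with and without the block) between the vehicles.

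With 1 library left out, the log2 fold change of MT1X ran from −0.182 to 0.069 between EESF high and EESF low, from −0.038 to 0.218 at EESF high, from −0.018 to 0.084 at EESF medium and from −0.223 to 0.047 at WESF low. That of MT2A ran from −0.069 to 0.077 at EESF low, from −0.033 to 0.066 at EESF medium, from −0.064 to 0.185 at WESF high (lowest adjusted p 0.035), from −0.016 to 0.079 at WESF medium and from −0.101 to 0.007 between the vehicles. That of MTF1 ran from −0.039 to 0.124 at WESF low and from −0.131 to 0.037 at WESF medium, and that of SLC30A1 from −0.079 to 0.012 at WESF low and from −0.043 to 0.064 between the vehicles. The cause was not tested. Calls near the fold limit were gained without 1 library by MT1X between WESF high and WESF low (−0.705 without WESF low replicate 3, −0.646 without WESF high replicate 3), by MT2A between EESF high and EESF low (0.64 without EESF low replicate 1, 0.597 without EESF low replicate 3, 0.657 without EESF high replicate 1), and in the difference between extracts by MT2A (0.633 without WESF high replicate 1) and MTF1 (−0.61 without vehicle A replicate 3, −0.596 without EESF high replicate 1).

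Over all genes, DESeq2 called 23 instead of 36 at WESF medium, 33 instead of 98 at EESF medium, 8 instead of 35 at EESF low, 1 instead of 0 at WESF low and 0 instead of 4 in the medium-dose difference between extracts (0 with the replicate block too). At EESF low 64 were called with no filter and 73 with all genes. The fit with all groups of the batch also kept all genes of the table, and it called 56 there and 153 at EESF medium. All genes without the other groups gave 146 at EESF medium, so the rise to 153 is not that of the added groups alone. No filter gave 3 at WESF low, 1 between the vehicles, and 10 and 4 in the medium- and low-dose differences. With the trend removed 54 were called at EESF medium, 1 at WESF low and 332 instead of 519 in the difference at the highest dose. The block across the vehicles, also chosen after seeing the data, gave 17 between the vehicles and 20 and 9 in the medium- and low-dose differences, and with the trend removed too 13, 13 and 1, and 338 at the highest dose.

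Same-numbered libraries within a batch correlated between −0.262 and 0.117 in their deviations from the group means, so the numbers did not pair the samples there. With a replicate block within the batch, 3 of 5 members were called at WESF high and 2 of 5 at EESF high, as without it, MTF1 at EESF low reached an adjusted p of 0.0181 (log2 fold change −0.213) and MT2A between WESF high and WESF low one of 0.0373 (0.215), and genes called numbered 3156 instead of 3158 at WESF high and 2228 instead of 2276 at EESF high. The block across the vehicles alone changed no call of a member in these comparisons. Depth limits MT1F, MT1G and MT1M, of which MT1F passed the filter on low counts in 1 comparison and the others in none.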
